A study of Mus musculus with 6 samples.

Results

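The genes described here write, copy and remove DNA methylation: the methyltransferases and cofactors Dnmt1, Dnmt3a, Dnmt3b, Dnmt3l and Uhrf1, the oxidases Tet1, Tet2 and Tet3, and the DNA glycosylases Tdg and Mbd4. They were chosen by name, as all probe sets whose platform symbol is one of these 10. Of the 10, 9 had at least 1 probe set of their own, 12 probe sets in all, out of 19938 genes and 35556 probe sets on the array. Tdg was represented only by 4 probe sets that also carry the symbol of its pseudogene Tdg-ps2.

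The data come from mouse embryonic stem (ES) cells on 6 Affymetrix Mouse Gene 1.0 ST arrays, 3 from Scc1 lox/lox ERT2-Cre cells and 3 from Scc1 wt/wt ERT2-Cre cells. Scc1 is an older name of Rad21, the subunit that closes the cohesin ring. ERT2-Cre, present in both genotypes, is a recombinase that 4-hydroxytamoxifen (4-OHT) lets into the nucleus. All 6 cultures were kept with 4-OHT for 24 h. The dose is 80 nM in the sample labels, whereas the design text gives the same number in mM. All cells were female, of a mixed C57BL/129 background, and had been derived in 2i (inhibitors of Mek and Gsk3 that keep cells naive), and then kept with LIF in serum-free N2B27 on laminin. The labels give neither the promoter that drives ERT2-Cre nor the number of cell lines per genotype, and cells without 4-OHT were not analysed here, so the loss of Rad21 and any earlier difference between the lines cannot be told apart.

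In mammals, Dnmt3a and Dnmt3b place methyl groups on cytosine of CpG dinucleotides that carried none, with the catalytically inactive Dnmt3l as their cofactor, while Dnmt1, guided by Uhrf1 to half-methylated DNA behind the replication fork, copies the pattern to the new strand. Tet enzymes oxidise 5-methylcytosine to 5-hydroxymethylcytosine and then to further products. Tdg cuts out these further products, and Mbd4 removes thymine that arises when methylated cytosine loses its amino group. Naive ES cells in 2i are known for low DNA methylation and low levels of the de novo methyltransferases, which increase when cells pass to the primed state.

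The 3 Rad21 values were 6.08, 6.06 and 6.14 in lox/lox cells, against 10.05, 9.99 and 10.01 in wt/wt cells (log2 intensity). The gene that the labels name was thus low on every lox/lox array. Over all probe sets, array medians lay between 4.85 and 4.94 and correlations between arrays between 0.9892 and 0.9947. Within the genotypes, lox/lox replicate 3 (loading 0.482) and wt/wt replicate 2 (0.621) stood apart from the other arrays (-0.5002 to -0.121) on the leading principal component of the differences from the genotype means (34.8% of their variance). Of the 6 ES cell markers (Pou5f1, Sox2, Nanog, Zfp42, Esrrb, Dppa5a), all lay far above the median of all values, 4.90, with list means of 11.04 to 11.16 on lox/lox arrays and 11.36 to 11.44 on wt/wt arrays.

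The de novo cofactor Dnmt3l rose 2.80-fold and the de novo enzyme Dnmt3b 1.39-fold in lox/lox cells, while Tet2 fell to a 3.41-fold lower level and Mbd4 to a 1.29-fold lower one. The genes of maintenance methylation, Dnmt1 and Uhrf1, and the oxidases Tet1 and Tet3 had changes of at most 1.10-fold that did not pass the test. Of the 9 genes with a probe set of their own, 2 were thus higher, 2 were lower and 5 did not pass, with a gene called at an adjusted p under 0.05 in limma (Benjamini-Hochberg over all genes). Over all genes 6.16% were called, 2.55% as higher and 3.61% as lower. The genotypes did not overlap in 5 of the 9 genes (Dnmt3a besides the called ones), against 22.8% of all genes. The median log2 change of the 9 was -0.05, against -0.01 over all genes, and the median size of change 0.31, against 0.09. The count of lower genes was 1 without lox/lox replicate 1, lox/lox replicate 2, wt/wt replicate 1 or wt/wt replicate 3, and also without both arrays that stood apart, since Mbd4 then missed the threshold. The count of higher genes was 2 in each of these fits.

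**Figure D1:**
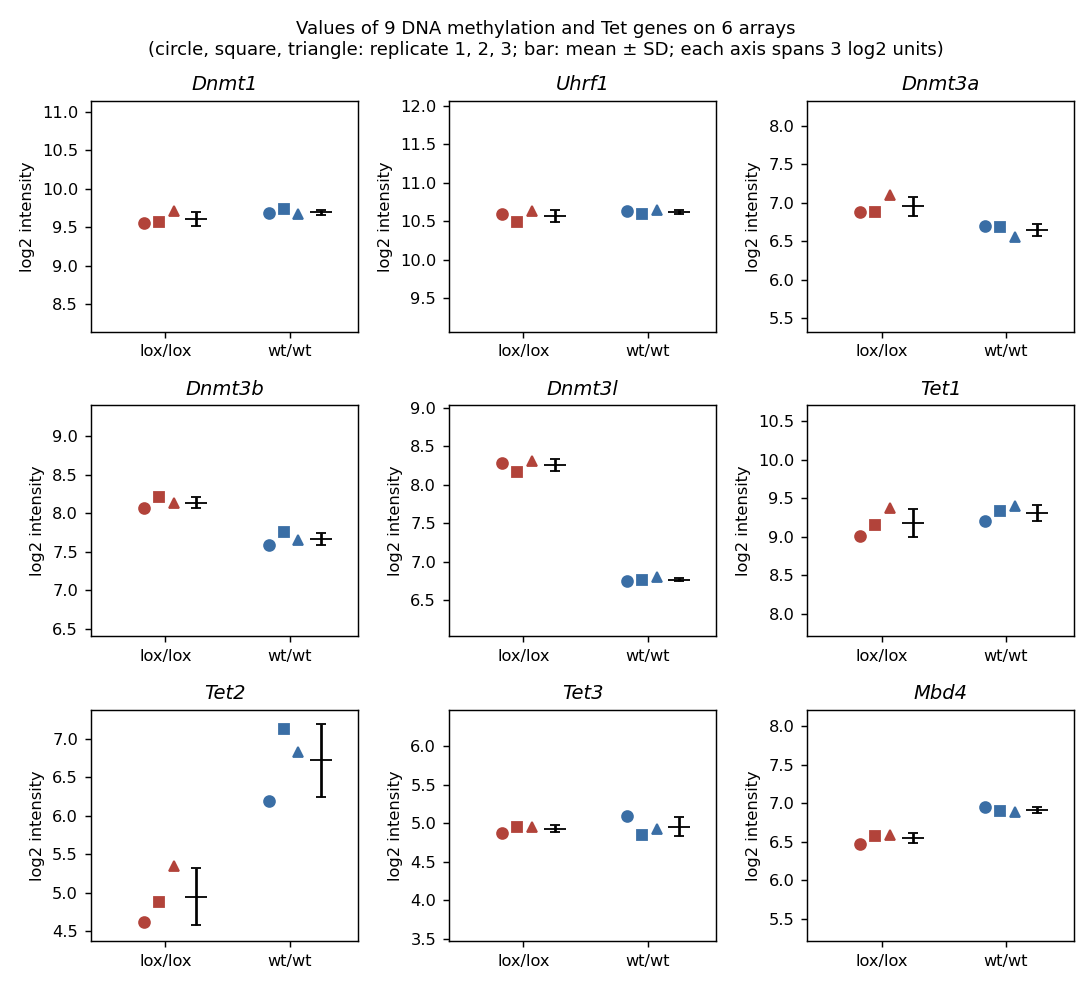
Log2 intensity of 9 genes (one panel each) on the 3 lox/lox arrays (red, left) and the 3 wt/wt arrays (blue, right), with mean and SD as black bars and marker shapes for replicates. The genotypes separate for Dnmt3l, Dnmt3b, Dnmt3a, Tet2 and Mbd4, and overlap for Dnmt1, Uhrf1, Tet1 and Tet3.

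Dnmt3l had log2 intensities of 8.28, 8.16 and 8.31 in lox/lox cells, against 6.75, 6.76 and 6.80 in wt/wt cells. All 3 lox/lox arrays lay well above all wt/wt arrays, and the spread within either genotype was small. The log2 change was 1.48 (SE 0.08, 95% interval 1.31 to 1.65, adjusted p = 9.84e-06 in limma), with group means of 8.25 ± 0.08 and 6.77 ± 0.02 (SD, n = 3 each). By p this was the number 4 gene of the 19938, and by size the number 12 increase. When each array was left out in turn, the change lay between 1.46 and 1.53.

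Dnmt3b had log2 intensities of 8.06, 8.21 and 8.14 in lox/lox cells, against 7.59, 7.75 and 7.65 in wt/wt cells. The lowest lox/lox array was above the highest wt/wt array, so the genotypes did not overlap. The log2 change of 0.47 (SE 0.08, 95% interval 0.29 to 0.65) passed in limma (adjusted p = 0.00657). Leaving out any 1 array kept it past the threshold, with 0.0421 as the highest adjusted p.

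Dnmt3a, the second de novo enzyme, had log2 intensities of 6.88, 6.88 and 7.10 in lox/lox cells, against 6.70, 6.68 and 6.55 in wt/wt cells. The genotypes did not overlap here either, but the gap between the closest arrays was narrow and lox/lox replicate 3, which stood apart, was the highest value. The log2 change of 0.31 (SE 0.09, 95% interval 0.11 to 0.51) did not pass (adjusted p = 0.0760 in limma). It did pass with quantile normalization (adjusted p = 0.0402), cyclic loess (0.0461), dim genes removed (0.0472) and array weights (0.0444), and in none of the 6 fits without 1 array, where the adjusted p reached 0.259.

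Because Dnmt3b and Dnmt3l were both called higher, the DNA around their annotated starts is shown, from 250 bases before to 50 bases after each start (RefSeq, GRCm38.p6), with every CpG, the dinucleotide that DNA methyltransferases act on, in capitals. Dnmt3l has 3 annotated starts, which its single probe set does not tell apart.
Dnmt3b, chr2:153649199-153649498, plus strand: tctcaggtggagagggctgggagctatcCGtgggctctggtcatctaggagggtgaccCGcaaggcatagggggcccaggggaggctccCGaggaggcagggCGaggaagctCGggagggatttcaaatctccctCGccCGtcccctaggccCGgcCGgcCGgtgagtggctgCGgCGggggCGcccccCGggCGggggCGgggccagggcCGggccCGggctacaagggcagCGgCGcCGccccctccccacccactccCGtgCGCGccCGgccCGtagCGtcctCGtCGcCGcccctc
Dnmt3l start 1, chr10:78042037-78042336, plus strand: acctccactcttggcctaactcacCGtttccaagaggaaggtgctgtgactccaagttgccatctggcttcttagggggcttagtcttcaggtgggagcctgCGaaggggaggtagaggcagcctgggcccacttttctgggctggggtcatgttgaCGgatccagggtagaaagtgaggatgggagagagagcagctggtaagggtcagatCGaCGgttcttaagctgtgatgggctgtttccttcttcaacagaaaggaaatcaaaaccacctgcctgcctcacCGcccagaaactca
Dnmt3l start 2, chr10:78049592-78049891, plus strand: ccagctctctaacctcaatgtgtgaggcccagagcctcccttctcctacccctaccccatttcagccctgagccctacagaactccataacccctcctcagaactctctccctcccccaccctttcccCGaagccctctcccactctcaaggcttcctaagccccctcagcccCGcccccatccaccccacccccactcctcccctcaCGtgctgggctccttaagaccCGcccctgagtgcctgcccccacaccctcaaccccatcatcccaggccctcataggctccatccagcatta
Dnmt3l start 3, chr10:78055085-78055384, plus strand: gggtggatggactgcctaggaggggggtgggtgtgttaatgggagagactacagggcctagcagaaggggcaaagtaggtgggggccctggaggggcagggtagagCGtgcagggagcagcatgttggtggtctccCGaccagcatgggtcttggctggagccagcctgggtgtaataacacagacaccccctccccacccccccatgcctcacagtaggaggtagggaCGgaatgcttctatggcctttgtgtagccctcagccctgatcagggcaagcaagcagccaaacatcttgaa

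The Dnmt3b window held 30 CpGs, more than 88.3% of the 32851 windows in the table. The 3 Dnmt3l windows held 6, 4 and 3 CpGs, below the median of 7 over all windows. The windows of the pair called higher thus differed in CpG content. CACGTG, the E-box that Myc binds with Max, was in 1 of the 3 Dnmt3l windows (start 2, 1 match) and not in the Dnmt3b window, and 7.15% of all windows held it. GGGCGG, the GC box, had 4 matches in the Dnmt3b window and 1, 2 and 0 in the Dnmt3l windows, and 35.7% of all windows held at least 1. TTTGGCGC, a form of the E2F site, was in none of these 4 windows and in 0.514% of all. Both strands were searched, the palindrome CACGTG was counted once, and motifs were counted separately, so that matches may share bases.

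**Figure D2:**
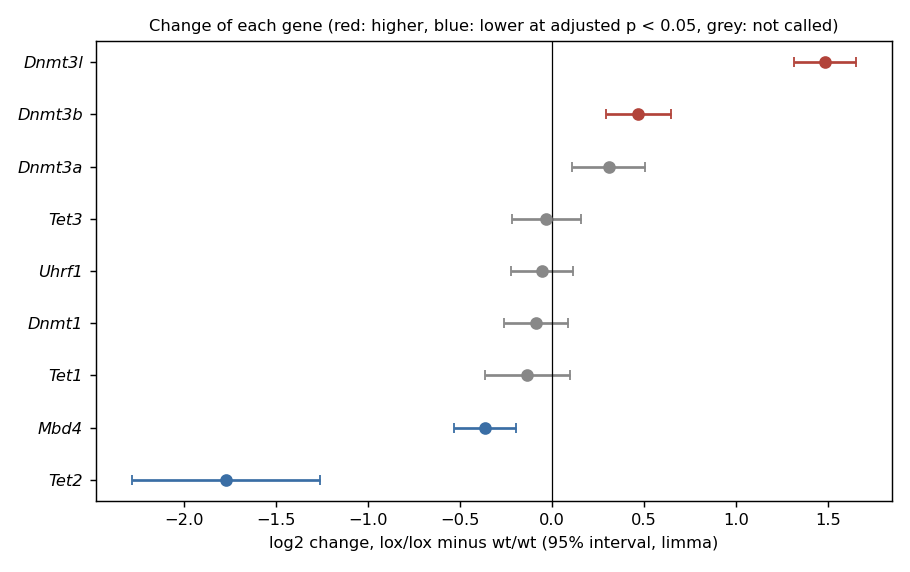
Log2 change (lox/lox minus wt/wt) of each of the 9 genes with its 95% interval in limma, from the largest increase at the top to the largest decrease at the bottom. Dnmt3l (1.48) and Tet2 (-1.77) lie far from 0, and the intervals of Tet1, Tet3, Dnmt1 and Uhrf1 span 0.

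Dnmt1 and Uhrf1, which copy methylation at replication, overlapped between the genotypes. Dnmt1 had log2 intensities of 9.55, 9.57 and 9.71 in lox/lox cells, against 9.68, 9.73 and 9.68 in wt/wt cells, and Uhrf1 10.60, 10.49 and 10.63, against 10.64, 10.59 and 10.65. In both genes lox/lox replicate 3 lay within the wt/wt range. The log2 change of Dnmt1 was -0.09 (95% interval -0.26 to 0.09, adjusted p = 0.660 in limma) and that of Uhrf1 -0.05 (95% interval -0.22 to 0.12, adjusted p = 0.817). The intervals bound the changes of these genes and do not show that their levels were equal.

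Genes of G1/S and S phase, the time at which Dnmt1 and Uhrf1 act, are given beside them. Of the 16 genes of that list, 4 were lower (Cdc45, Cdc6, Chaf1b, Mcm4) and none higher, with a median log2 change of -0.16. Called genes made up 25% of the list, against 6.16% of all genes. An unadjusted p under 0.05 in limma was found for 7 of the 16, against 18% of all genes. Mcm4 and Cdc45 passed in 3 of the 6 fits without 1 array, Chaf1b in 2 and Cdc6 in 0. The summed log2 level of the list was 147.8 to 149.2 on lox/lox arrays, against 151.5 to 152.0 on wt/wt arrays, and all 16 lay above the median of all values. The part of cell cycle composition in the values of Dnmt1 and Uhrf1 was not tested. In a bulk culture, fewer cells of a kind and less RNA per cell cannot be told apart.

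Tet2 had log2 intensities of 4.62, 4.88 and 5.35 in lox/lox cells, against 6.20, 7.13 and 6.83 in wt/wt cells. Every lox/lox array was below every wt/wt array, yet the values spread more within both genotypes than those of the other 8 genes. The means were 4.95 ± 0.37 and 6.72 ± 0.48 (SD, n = 3 each), and the log2 change was -1.77 (SE 0.23, 95% interval -2.28 to -1.26, adjusted p = 0.00142 in limma). This was the number 13 decrease by size of the 19938 genes. The lox/lox mean was close to the median of all values (4.90), where background signal compresses differences, so the fold change may understate the change of the transcript. The arrays with the highest Tet2 in their genotypes were those that stood apart, lox/lox replicate 3 and wt/wt replicate 2. Without both, the log2 change was -1.76 (adjusted p = 0.00762), and without 1 array at a time it lay between -2.03 and -1.56, each time past the threshold.

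Tet1, which with Tet2 is the main Tet enzyme of mouse ES cells, had log2 intensities of 9.01, 9.16 and 9.37 in lox/lox cells, against 9.20, 9.33 and 9.40 in wt/wt cells. The genotypes overlapped, and lox/lox replicate 3 was within the wt/wt range. The log2 change was -0.13 (SE 0.10, 95% interval -0.36 to 0.10, adjusted p = 0.584 in limma). The other 2 probe sets of Tet1 changed by -0.10 and -0.15 on the log2 scale (adjusted p = 0.745 and 0.648 over all probe sets).

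Tet3 had log2 intensities of 4.87, 4.95 and 4.95 in lox/lox cells, against 5.09, 4.85 and 4.92 in wt/wt cells, close to the median of all values. The genotypes overlapped, with the highest and the lowest value both in wt/wt cells. The log2 change was -0.03 (95% interval -0.22 to 0.16, adjusted p = 0.918 in limma), and the second probe set, which was dimmer (a mean of 4.32 in lox/lox cells, against 4.19 in wt/wt cells), had one of 0.13 (adjusted p = 0.527 over all probe sets). The sign of the Tet3 change turned with the mean of both probe sets (0.049) and without wt/wt replicate 1 (0.040), and no direction is given for it.

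The Tet2 start is shown because Tet2 changed most among the 9 genes, again with CpGs in capitals.
Tet2, chr3:133544341-133544640, minus strand: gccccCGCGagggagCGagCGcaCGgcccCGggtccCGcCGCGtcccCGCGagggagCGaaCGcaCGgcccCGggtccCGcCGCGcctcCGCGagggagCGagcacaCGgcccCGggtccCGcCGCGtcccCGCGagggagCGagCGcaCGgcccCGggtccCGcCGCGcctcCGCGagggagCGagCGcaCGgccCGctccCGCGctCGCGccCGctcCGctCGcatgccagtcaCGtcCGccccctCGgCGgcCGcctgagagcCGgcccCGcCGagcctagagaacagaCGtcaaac

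This window held 57 CpGs, at a GC content of 81.3%, and 99.85% of all windows held fewer CpGs. The Tet1 and Tet3 windows held 17 and 22 CpGs. In the Tet2 window GGGCGG had 1 match, and CACGTG and TTTGGCGC had none.

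Mbd4 had log2 intensities of 6.47, 6.58 and 6.59 in lox/lox cells, against 6.96, 6.90 and 6.88 in wt/wt cells. The genotypes did not overlap and the spread within each was small. The log2 change of -0.36 (SE 0.08, 95% interval -0.53 to -0.20, adjusted p = 0.0184 in limma) kept its sign in all 6 fits without 1 array and passed in 2 of them. Its adjusted p was 0.0773 without lox/lox replicate 1, then 0.0618 when lox/lox replicate 2 was left out, 0.0538 without wt/wt replicate 1 and 0.0617 without wt/wt replicate 3. It was 0.0551 when all probe sets were tested and 0.0654 without both arrays that stood apart. The 4 probe sets shared by Tdg and Tdg-ps2 had means of 8.91 to 9.11 in lox/lox cells, against 8.84 to 9.05 in wt/wt cells. Their log2 changes were 0.04 to 0.07, and none passed (adjusted p of 0.757 to 0.896 over all probe sets). Signal of the gene and of the pseudogene cannot be told apart on them, and no value is given for Tdg itself.

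**Figure D3:**
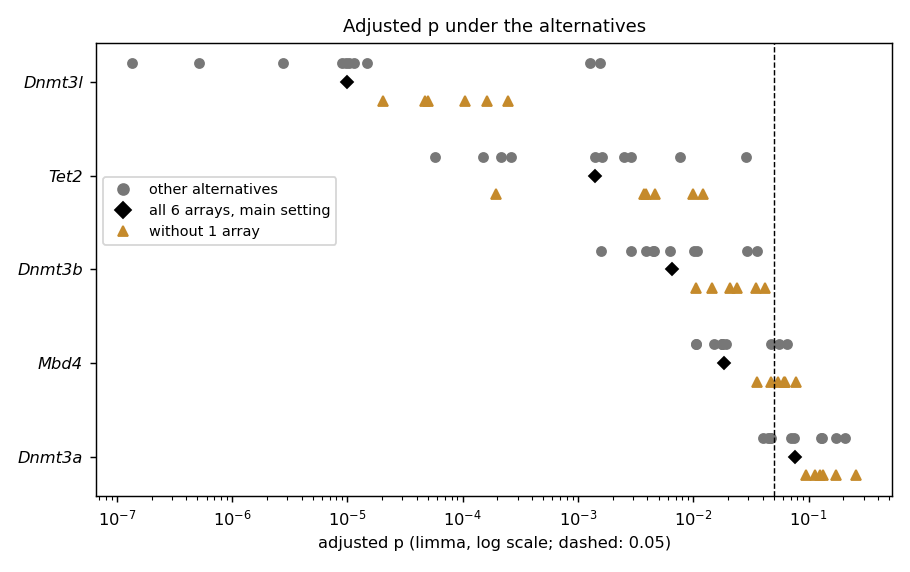
Adjusted p in limma (log axis) of the 4 called genes and of Dnmt3a with all 6 arrays (black diamonds), without 1 array (orange triangles) and under the other alternatives (grey circles), with the threshold of 0.05 dashed. Dnmt3l, Tet2 and Dnmt3b stay left of the threshold throughout, while Mbd4 and Dnmt3a lie on both sides of it.

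Members of one family were also set against each other within each array. The log2 difference Tet1 minus Tet2, was 4.39, 4.28 and 4.02 in lox/lox cells, against 3.005, 2.20 and 2.57 in wt/wt cells, so that it was larger by 1.64 in lox/lox cells. The difference Dnmt3l minus Dnmt3a was 1.40, 1.29 and 1.21 in lox/lox cells, against 0.05, 0.08 and 0.25 in wt/wt cells, a change of 1.18. The difference Dnmt3b minus Dnmt1 was -1.49, -1.36 and -1.58 in lox/lox cells, against -2.09, -1.98 and -2.02 in wt/wt cells, a change of 0.56. None of the 3 differences overlapped between the genotypes. Each pair set a called gene that was itself separated (Tet2, Dnmt3l or Dnmt3b) against a gene that was not called. The differences thus largely restate the changes of the called genes and are no separate evidence. Each had an exact two-sided permutation p of 0.1 (0.1 also adjusted over the 3), the smallest that 3 arrays against 3 can give, so this test cannot pass 0.05. Only the changes between genotypes are compared here, since probe sets of different genes bind with different strength.

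Beyond the 9 genes, 57 measured genes of 5 lists around the pathway held 5 that passed, 1 higher and 4 lower. This was 8.77%, against 6.16% of all genes. An unadjusted p under 0.05 in limma was found for 20 of the 57, against 18% of all genes. The count of genes that passed was 8 without lox/lox replicate 1. It was 3 when any of lox/lox replicate 2, wt/wt replicate 2 and wt/wt replicate 3 was left out. Among 7 measured readers of 5-methylcytosine, Uhrf2, the paralogue of Uhrf1 that binds 5-hydroxymethylcytosine, was higher, and 6 did not pass (list median 0.03). The share called was 14.3% of the readers, against 6.16% of all genes. Uhrf2 stood at 7.90, 8.01 and 8.11 in lox/lox cells, against 7.49, 7.50 and 7.39 in wt/wt cells. The genotypes were clearly apart, with a log2 change of 0.55 (SE 0.08, adjusted p = 0.00327 in limma) that passed in each fit without 1 array.

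Of 22 genes that recruit, accompany or hold off the methylation enzymes, 2 were lower, none was higher and 20 did not pass (list median -0.11). The share called was 9.09%, against 6.16% of all genes. An unadjusted p under 0.05 in limma was found for 9 of the 22, against 18% of all genes. Prdm14, known in mouse ES cells as a repressor of the de novo methyltransferase genes, stood at 6.84, 6.85 and 7.19 in lox/lox cells, against 8.57, 8.88 and 8.87 in wt/wt cells. The log2 change was -1.82 (SE 0.12, adjusted p = 3.65e-05 in limma), and the genotypes lay far apart. Gadd45b, a stress-induced gene linked to active demethylation, had a log2 change of -0.62 (adjusted p = 0.0421), which passed in 1 of the 6 fits without 1 array and reached 0.138 without wt/wt replicate 3. Dppa3, which keeps Uhrf1 away from chromatin, had values of 7.13, 7.72 and 7.98 in lox/lox cells, against 6.98, 7.17 and 7.10 in wt/wt cells. The lowest lox/lox value lay within the wt/wt range, and the log2 change of 0.53 did not pass (adjusted p = 0.126).

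Of 11 genes of base excision repair, the pathway to which Tdg and Mbd4 belong, none passed in limma over all genes. The list holds other glycosylases as well as later steps. In it 4 genes had an unadjusted p under 0.05 (18% of all genes), and the smallest adjusted p was 0.0666 (list median 0.01). Of 7 measured genes that supply the methyl donor of the methyltransferases or the 2-oxoglutarate that Tet enzymes consume, 1 was lower and 6 did not pass (list median -0.12). The share called was 14.3% of this list, against 6.16% of all genes. The lower gene was Idh2, a mitochondrial isocitrate dehydrogenase that makes 2-oxoglutarate. It stood at 9.75, 9.67 and 9.73 in lox/lox cells, against 10.26, 10.24 and 10.22 in wt/wt cells. Its log2 change of -0.52 (SE 0.07, adjusted p = 0.00195) passed in each fit without 1 array.

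Germline genes whose promoters are methylated in somatic cells serve as known targets of the pathway. Of 10, 1 was lower, none was higher and 9 did not pass, with a list median of 0.17. The share called was 10%, against 6.16% of all genes. Dazl, an RNA-binding protein of germ cells, stood at 6.75, 6.42 and 6.76 in lox/lox cells, against 6.97, 7.51 and 7.43 in wt/wt cells. Its log2 change of -0.66 (adjusted p = 0.0248) passed in 2 of the 6 fits without 1 array and reached 0.115 without lox/lox replicate 2. Of the 10 genes, 4 were above the median of all values, and 5 had an unadjusted p under 0.05, against 18% of all genes. Besides Dazl these were Sycp1, Sycp3, Mael and Taf7l, named after their values were seen. Their log2 changes of 0.40, 0.51, 0.42 and 0.40 were opposite in sign to that of Dazl and did not pass (adjusted p of 0.0681 to 0.163 in limma). Each of them had its highest value on lox/lox replicate 3, an array that stood apart. The means of Sycp1 and Sycp3 lay below the median of all values in both genotypes.

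**Figure D4:**
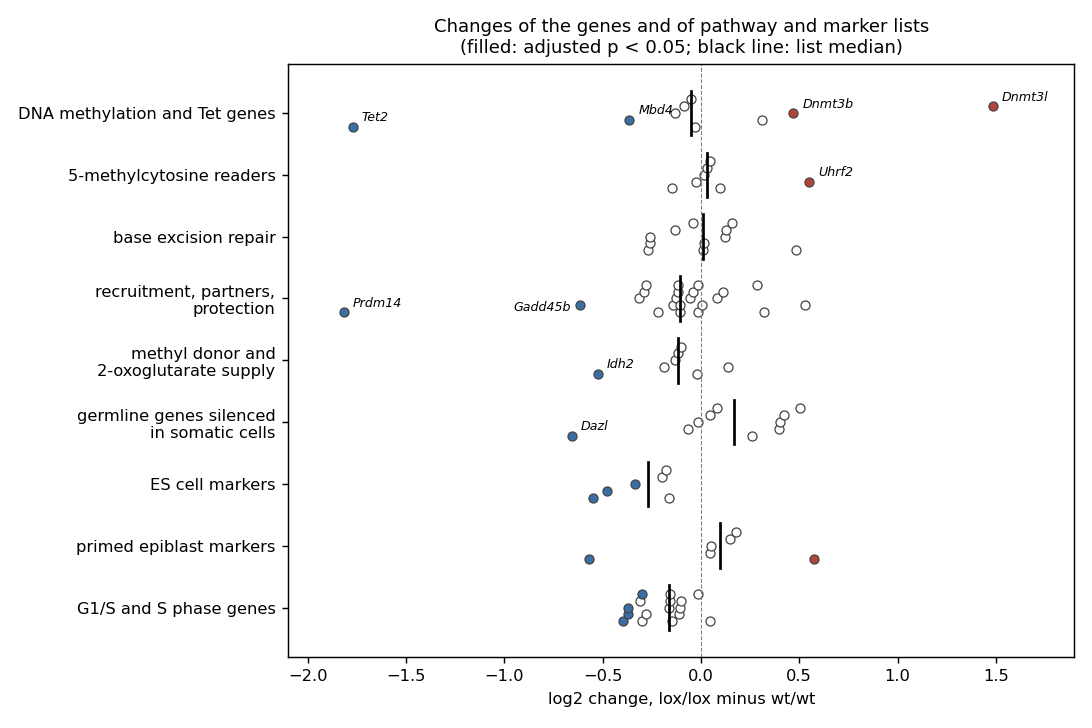
Log2 change (lox/lox minus wt/wt) of each measured gene of the DNA methylation and Tet genes, of 5 lists around the pathway and of 3 marker lists, with called genes filled (red higher, blue lower) and list medians as black lines. Prdm14, Tet2 and Dnmt3l lie apart from the other genes shown, and most genes of the pathway lists are not called.

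Markers of cell state were compared beside the called genes. Of the 6 ES cell markers 3 were lower (Nanog, Sox2 and Esrrb) and none higher, with a summed log2 level of 66.3 to 67.0 on lox/lox arrays, against 68.1 to 68.7 on wt/wt arrays. Called genes made up 50% of this list, against 6.16% of all genes. All 6 had negative log2 changes (-0.55 to -0.16) and an unadjusted p under 0.05 in limma, against 18% of all genes with such a p. The genotypes did not overlap in all 6, against 22.8% of all genes. Of 6 primed epiblast markers, among which Dnmt3b is often counted, Lef1 was higher, Zic2 was lower and 4 did not pass, so that 33.3% of this list was called. Nanog and Sox2 passed in all 6 fits without 1 array, Lef1 and Zic2 in 2 each and Esrrb in 1. The summed level of the primed markers was 36.6 to 37.4 on lox/lox arrays, against 35.8 to 36.9 on wt/wt arrays, and so overlapped. Fgf5 and Otx2, which mark early primed cells, had log2 changes of 0.15 and 0.18 that did not pass (adjusted p = 0.463 and 0.454 in limma). The part of a change of state in the values of Dnmt3b, Dnmt3l and Tet2 was not tested.

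Markers of other cell types were summed in the same way. None of 7 feeder fibroblast, 5 primitive endoderm and 6 trophectoderm markers passed in limma, with smallest adjusted p of 0.175, 0.366 and 0.678 and 1, 0 and 0 genes at an unadjusted p under 0.05. Summed log2 levels overlapped between the genotypes in all 3 lists: 34.2 to 35.0 on lox/lox and 33.5 to 35.1 on wt/wt arrays for fibroblasts, 22.2 to 22.9 and 21.5 to 23.2 for primitive endoderm, and 32.1 to 32.9 and 32.0 to 32.8 for trophectoderm. Of these markers 4 of 7, 2 of 5 and 4 of 6 lay above the median of all values.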

How the data were processed

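The values are log2 expression levels of 35556 probe sets on 6 arrays, 1 per sample, as deposited. The submitters' processing notes name RMA and affy. Their versions, the options and the genome build are not given in the sources read. RMA aligns the distributions of the arrays, so an overall change of RNA per cell cannot be seen, and the number of arrays limits the precision. Genotype and replicate number came from the labels, and the design text calls the replicates biological.

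The platform annotation named probe sets: 21789 had 1 gene symbol, 1621 several and 12146 are unnamed here. Each of 19938 genes was represented by its brightest single-symbol probe set, by the mean of all arrays. The comparison, lox/lox minus wt/wt, used lmFit and eBayes of limma 3.58.1 (R 4.3.3; degrees of freedom 4 residual, 6.14 prior), with p-values adjusted over all genes by Benjamini-Hochberg and called under 0.05. The fit was tested on simulated data. Within-array differences were tested by exact permutation.

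The genes, lists, markers, tests and alternatives were chosen with earlier results of these data known. Named were all 10 genes, Rad21, list members that passed (at most 4 per pathway list, those with the smallest p), and Prdm14, Dppa3, Fgf5 and Otx2. Of the 62 genes of the pathway lists 57 were measured, and the others were not analysed here, nor was the fibroblast marker Fbn1. Promoter windows matched all 10 genes by gene ID (17 windows).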

Additional observations from a re-analysis of the deposited data

How the results depend on the processing

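Each gene was refitted under 16 alternatives. The log2 changes of Dnmt3l (1.45 to 1.53), Dnmt3b (0.43 to 0.51) and Tet2 (-2.03 to -1.56) kept their direction and their side of the threshold in all 16, as did Dnmt1, Uhrf1 and Tet1 below it. Mbd4 (-0.39 to -0.33) missed the threshold in 6, with an adjusted p of up to 0.0773, and Dnmt3a (0.24 to 0.35) passed it in 4. Tet3 changed sign with the mean of its probe sets (0.049), and without 1 array it lay between -0.082 and 0.040, positive without wt/wt replicate 1. The 3 within-array differences kept their sign under all alternatives run on them.

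Of the genes described, 2 were called higher and 2 lower, of the pathway lists 5 genes and of all genes 1228. Without 1 array these counts were 2 in every fit for higher, 1 to 2 for lower, 3 to 8 for the pathway lists and 626 to 1132 for all genes. Without both arrays that stood apart, 1 was lower and 697 of all genes were called. With all probe sets tested, 1 was lower, 3 of the pathway lists were called and 808 of all probe sets. At an adjusted p under 0.01, 1 was lower, with 3 and 553 called in the lists and over all genes. With a change of at least 1.5-fold required, 1 was higher and 1 lower, with 3 and 451. The pathway count was 10 with dim genes removed, 12 with trend and robust moderation and 11 with array weights. In the same settings 1425, 1523 and 1717 of all genes were called. Removing dim genes left 49 genes of the pathway lists and 11400 genes in all. A count can only fall when a stricter threshold or a minimum fold change is required. For the other alternatives, including those with fewer arrays, the cause of a changed count was not tested.

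The replicate numbers did not pair the arrays: deviations of same-numbered arrays correlated at 0.06, -0.12 and -0.05. With the replicate number as a block, 2 genes were higher and 2 lower, 7 genes of the pathway lists and 1086 of all genes were called, and not every array correlated best with its own number. Scaling moved the median change of all genes by -0.019 to 0.004. Tet2 in lox/lox cells and Tet3 in both genotypes lay near the median of all values, where signal over background limits what can be seen.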
